A study of Mus musculus with 9 samples.

Results

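The genes of glycogen synthesis and breakdown were followed in the livers of 9 rats. The list held 9 genes, chosen by name for their part in the pathway, and 8 of them were matched by symbol among the 19686 genes of the count table. They were Gys2, Gbe1, Gyg1, Ugp2, Pygl, Ppp1r3b, Ppp1r3c and Ppp1r3g. The remaining gene, Phka2, was not analysed here. The libraries came from male Wistar rats of 3 of the study's groups, with 3 libraries a group. The study's groups held more rats than were sequenced, and how these were chosen was not stated. The control group drank purified water and received saline by gavage. The model group drank 15% fructose and received saline. The sample labels call the remaining group DSS, and by the study's methods it is the HME group, which drank 15% fructose and received the 50% methanol extract (HME) of Danggui-Shaoyao-San at 1.8 g/kg. Treatment lasted 8 weeks in every group, and all rats were fasted for 12 h before the liver was taken. The ages were not stated in the sources used here. The labels name the mouse as organism and Wistar rat as strain, and all members carry rat gene identifiers.

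Glycogen is the glucose store of the liver. Glycogenin (Gyg1) starts the chain, UDP-glucose pyrophosphorylase (Ugp2) supplies the activated glucose, glycogen synthase (Gys2) lengthens the chain, and the branching enzyme (Gbe1) adds the branches. Glycogen phosphorylase (Pygl) releases glucose units again during a fast. Targeting subunits (Ppp1r3b, Ppp1r3c, Ppp1r3g) bring protein phosphatase 1 to glycogen, where it activates the synthase and inactivates the phosphorylase. Transcript counts carry no information on phosphorylation, which sets much of the activity of these enzymes.

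Library totals ran from 14345819 to 26837227 counts. Levels are given per 1000000 counts (CPM) of the TMM-normalized library size, and as the counts were not divided by gene length, levels are compared between rats and not between genes. Fold changes are log2 values from edgeR's quasi-likelihood test on the 6 libraries of a comparison, with the false discovery rate (FDR) adjusted over all genes tested. Called genes had an FDR of 0.01 or less and a log2 fold change of 0.5 or more in either direction. The hepatocyte markers Alb, Apoa1, Ttr, Serpina1, Cyp2e1 and Tat were summed. The sums were 107890 to 135530 CPM in control rats, 129900 to 177530 CPM in model rats and 134220 to 167470 CPM in HME rats. Most of each sum was Alb, at 87429 to 146330 CPM, so the sums show little of the other markers. Over all genes, model replicate 1, the deepest library, differed most from its group, with a chi-square per gene of 65.9 and 55.9 against the other model libraries, which differed by 27.4 from each other. Model replicate 2 and HME replicate 1 were the lowest of their groups in the phosphatase subunits Ppp1r3b and Ppp1r3c. Values without these libraries are given beside several of the results that change when they are left out. In whole liver, fewer cells of a type and less RNA per cell cannot be told apart.

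The clearest difference was a low level of the branching enzyme in the HME group. Gbe1 was the only member called, at 229.95 ± 30.3 CPM in the HME group against 409 ± 15.2 CPM in the control group (SD, n = 3 each), where 1.48% of all 12633 genes tested were called. This call was lost with most single rats left out, with all 9 libraries in one fit and with the replicate block. Glycogen synthase (Gys2) was also lower there at the looser FDR of 0.05, though its FDR rose to as much as 0.0883 with a rat left out. No member was called by edgeR in model against control (0.0801% of all 12486 genes) or in HME against model (0.136% of all 12502 genes), although DESeq2 called Gbe1 in the latter. The phosphatase subunits Ppp1r3b and Ppp1r3c varied widely among the fructose-drinking rats.

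**Figure D1:**
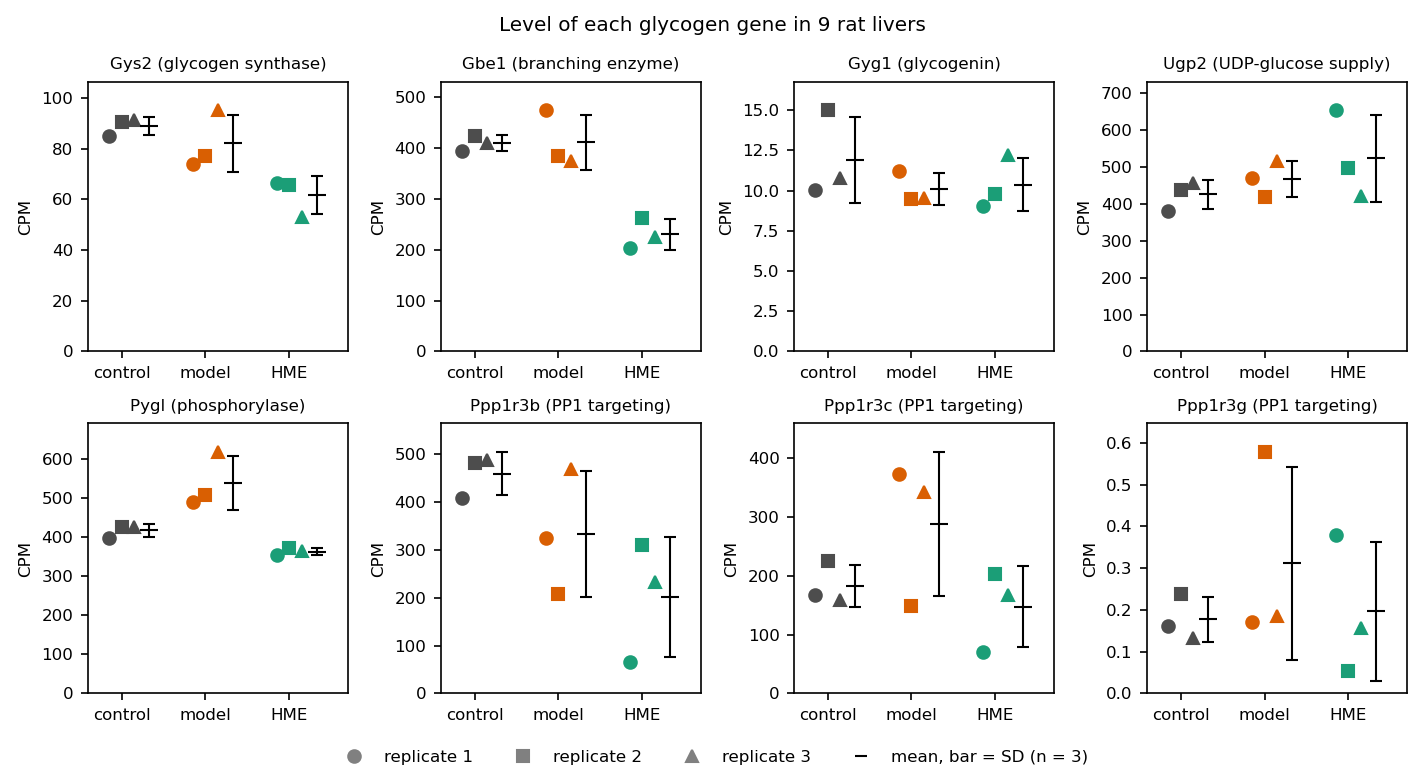
Each panel plots the level of a gene in CPM for the control, model and HME rats, with the symbol giving the replicate number and the black bar the mean ± SD (n = 3). The HME rats of Gbe1 sit between 203 and 262 CPM, below all other rats, while Ppp1r3b in HME replicate 1 falls to 64.8 CPM.

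Gbe1 (ENSRNOG00000051232) stood at 394, 424 and 410.1 CPM in the control rats. The model rats were at 474, 384 and 374 CPM, and the HME rats at 203, 262 and 225 CPM. Control and model rats overlapped, and all 3 HME rats lay below all other 6. Between HME and control the log2 fold change was -0.84 (standard error 0.127, 95% interval -1.13 to -0.55, FDR 0.00719 from edgeR), which passed both thresholds. Against the model group Gbe1 had a log2 fold change of -0.83 (standard error 0.162, 95% interval -1.20 to -0.46), about the same size, but the FDR of 0.1 from edgeR missed the threshold. The model and control groups differed by only 0.003 (95% interval -0.34 to 0.34, FDR 0.995), and by -0.13 without model replicate 1, the highest model rat (FDR 0.664). The call against control was lost when HME replicate 1 or 3 or any control rat was left out, with FDR values up to 0.0295. With all 9 libraries in one fit the FDR was 0.0121, and with the replicate number as a block 0.0176. DESeq2 gave an FDR of 0.000552 against the model group.

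Gys2 (ENSRNOG00000059753), the liver form of glycogen synthase, was at 84.8, 90.4 and 91.4 CPM in the control rats. It stood at 74.1, 77.1 and 95.05 CPM in the model rats and at 66.3, 65.7 and 52.9 CPM in the HME rats. Every HME rat was below every model and control rat, and the model rats lay on both sides of the control rats. The log2 fold change between HME and control was -0.53 (standard error 0.115, 95% interval -0.79 to -0.28, FDR 0.0278 from edgeR), which met the FDR of 0.05 but missed that of 0.01. Against the model group it was -0.41 (95% interval -0.77 to -0.04, FDR 0.574), and between model and control it was -0.12 (95% interval -0.44 to 0.20, FDR 0.761). With DESeq2 the difference from control passed both thresholds (FDR 0.00461). With 1 rat left out, the edgeR value against control ran from -0.59 to -0.42, the latter without HME replicate 3. The FDR was then 0.0459 to 0.0883. Against the model group the value ran from -0.48 to -0.28, the latter without model replicate 3.

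The earlier steps of synthesis gave no called difference. Ugp2 (ENSRNOG00000008079) was at 382, 438 and 456 CPM in the control rats, at 469, 418 and 515 CPM in the model rats and at 653, 496 and 421 CPM in the HME rats. The groups overlapped, and the highest rat was HME replicate 1, the rat with the lowest Gbe1. Its log2 fold changes were 0.13 in model against control, 0.17 in HME against model and 0.29 in HME against control, the last with a 95% interval of -0.09 to 0.67 (lowest FDR 0.327, edgeR). Without HME replicate 1 the second of these was -0.03 and the third 0.10. Gyg1 (ENSRNOG00000011146) had between 148 and 261 counts a library. It averaged 11.9 ± 2.67 CPM in control rats, 10.1 ± 0.987 CPM in model rats and 10.4 ± 1.66 CPM in HME rats, with overlap in each comparison and no FDR below 0.557.

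On the breakdown side, Pygl (ENSRNOG00000006388) was at 399, 427 and 428 CPM in the control rats and at 491, 508 and 618 CPM in the model rats. In the HME rats it was at 354, 372 and 366 CPM. The 3 groups did not overlap at all, with the model rats highest and the HME rats lowest. Phosphorylase was thus the only member in which the model rats lay wholly above the control rats, as they did for 11.2% of all 12486 genes tested. The log2 fold change in model against control was 0.36 (95% interval 0.03 to 0.70), with an unadjusted p of 0.0366 and an FDR of 0.334 from edgeR. In HME against model it was -0.56 (95% interval -0.90 to -0.23, FDR 0.279), and in HME against control -0.21 (95% interval -0.45 to 0.04, FDR 0.274). None of these differences passed the threshold. With 1 rat left out, the value in model against control ran from 0.25 to 0.41, the former without model replicate 3. In HME against model it ran from -0.63 to -0.45, the latter without model replicate 3.

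Ppp1r3b (ENSRNOG00000011474) encodes the targeting subunit best known from liver. Its level was 408, 482 and 488 CPM in the control rats, 324, 207 and 468 CPM in the model rats, and 64.8, 309.9 and 233 CPM in the HME rats. All HME rats were below all control rats, whereas the model rats overlapped both groups. The log2 fold change in HME against control was -1.19, the largest of the 7 members tested, with a 95% interval of -2.59 to 0.21 and an FDR of 0.267 from edgeR. Without HME replicate 1 it was -0.77 (FDR 0.0566). In model against control it was -0.46 (95% interval -1.09 to 0.16, FDR 0.517). That value was -0.22 without model replicate 2 and -0.79 without model replicate 3. In HME against model the log2 fold change was -0.72 (95% interval -1.92 to 0.48, FDR 0.823). With 1 rat left out it ran from -1.17 without HME replicate 2 to -0.30 without HME replicate 1. Without both model replicate 2 and HME replicate 1 it was -0.54 (FDR 0.794).

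Ppp1r3c (ENSRNOG00000018494) encodes a related subunit found in several tissues. It was at 167, 224 and 158 CPM in the control rats and at 372, 148 and 343 CPM in the model rats. The HME rats were at 70.9, 204 and 168 CPM. The groups overlapped in every comparison, and model replicate 2 lay below all control rats while the other model rats lay above them. The log2 fold change was 0.65 in model against control (95% interval -0.11 to 1.42, FDR 0.457 from edgeR), and without model replicate 2 it was 0.96 (FDR 0.0788). Without model replicate 1 it was 0.41, and FDR values from edgeR reached 0.752 with a rat left out. In HME against model it was -0.96 (95% interval -1.98 to 0.05, FDR 0.657). Without HME replicate 1 it was -0.63, without model replicate 2 it was -1.28, and without both it was -0.94 (FDR 0.290). In HME against control it was -0.32 (95% interval -1.28 to 0.63, FDR 0.676), and 0.01 without HME replicate 1. Ppp1r3g (ENSRNOG00000016222) had 1 to 9 counts a library, did not pass the filter on low counts in any comparison and was given no fold change.

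At an FDR of 0.05 with the same fold threshold, 2 of the 7 members tested were lower in HME than in control, where 3.29% of all genes were. By position of the rats, 4 of 7 members were lower in HME than in control without overlap (14.9% of all genes) and 3 of 7 in HME than in model (7.69% of all genes). The latter were Gys2, Gbe1 and Pygl, which were also the 3 members lower at an unadjusted p under 0.05 (4.49% of all genes). The median log2 fold change of the 7 members was 0.003 in model against control, -0.56 in HME against model and -0.32 in HME against control, beside medians over all genes of -0.001, 0.001 and -0.008. The comparisons share groups, so these values are not independent of each other.

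**Figure D2:**
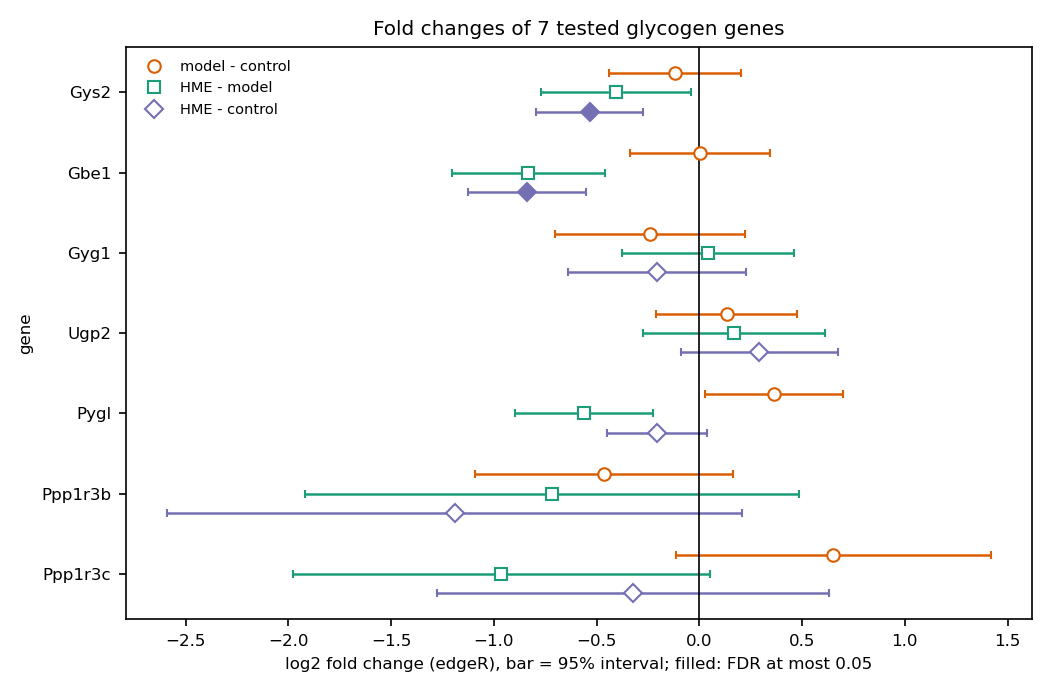
The log2 fold change of each tested member is plotted with its 95% interval for model minus control (circles), HME minus model (squares) and HME minus control (diamonds), and filled symbols mark an FDR of at most 0.05. Only Gbe1 and Gys2 in HME minus control are filled, and the intervals of Ppp1r3b and Ppp1r3c are the widest.

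Ratios of genes within a library do not depend on how libraries are scaled, and the ratio of synthase to phosphorylase counts was followed in this way. In the control rats there were 21.2, 21.2 and 21.4 Gys2 counts per 100 Pygl counts. In the model rats there were 15.1, 15.2 and 15.4, and in the HME rats 18.7, 17.7 and 14.5. All fructose-drinking rats were below all control rats, and the HME rats lay on both sides of the model rats. On the log2 scale the ratio was -2.23 ± 0.006 in the control group and -2.72 ± 0.014 in the model group, a difference of -0.48 (exact permutation test, two-sided, p = 0.1, the smallest that 3 rats against 3 can give). The counting error of a single library was 0.035 to 0.048, more than the spread between the 3 rats in either of these groups. For HME against control the difference was -0.33 (exact permutation p = 0.1) and for HME against model 0.15 (exact permutation p = 0.4), with an SD of 0.197 in the HME group.

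The counts of the phosphatase subunits were compared in the same manner, a ratio chosen after their values were seen. Ppp1r3b had 2.44, 2.15 and 3.09 counts per Ppp1r3c count in the control rats. The ratio was 0.871, 1.40 and 1.37 in the model rats, and 0.913, 1.52 and 1.39 in the HME rats. All 6 fructose-drinking rats lay below the 3 control rats, and the model and HME rats overlapped. For model against control the difference in the mean log2 ratio was -1.09 (exact permutation p = 0.1), and for HME against control the difference was -1.02 (exact permutation p = 0.1). Between HME and model it was 0.07 (exact permutation p = 0.6). Neither subunit alone was called in any comparison. Among the 21 pairs that the 7 members form, 8 had ratios without overlap between model and control, 5 between HME and model and 12 between HME and control. Over all pairs of genes with at least 10 counts in every library, these shares were 20.6%, 14.2% and 30.1%. The 21 pairs share their members and are not independent of each other, so their number was not tested against these shares.

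**Figure D3:**
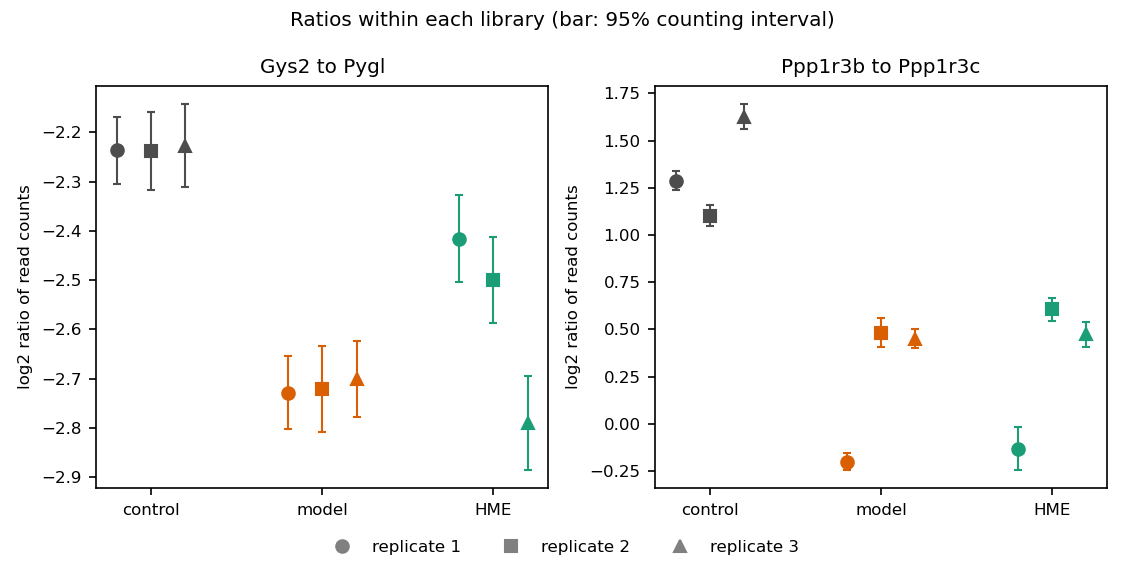
The log2 ratio of read counts within each library is plotted for Gys2 to Pygl on the left and Ppp1r3b to Ppp1r3c on the right, with bars for the 95% counting interval of a library. In both panels every model and HME rat lies below the control rats, which sit near -2.23 on the left and between 1.10 and 1.63 on the right.

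The spread between rats of a group differed from member to member. Over 7084 genes with a mean of at least 10 CPM, the SD of log2 CPM of Ppp1r3b lay at the 53.3 percentile in the control group, at 92.1 in the model group and at 99.6 in the HME group. For Ppp1r3c these positions were 85.0, 95.5 and 98.7. Pygl stood at the other end in the HME group, at the 4.67 percentile. Model replicate 2 and HME replicate 1 were the lowest rats of their groups in Ppp1r3b and in Ppp1r3c alike. After the group means were removed, these genes had a Pearson correlation of 0.89 over the 9 libraries, the highest of the 28 pairs of members, which is given as a description. Ppp1r3g, despite its few counts, had correlations of nearly that size but negative, -0.86 with Ppp1r3b and -0.86 with Ppp1r3c.

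Nr1d1, a repressor of the circadian clock, was at 81.5 CPM in model replicate 2, against 13.2 and 27.3 CPM in the other model rats, at 84.4 to 105 CPM in the HME rats and at 2.02 to 8.55 CPM in the control rats. Hepatic glycogen synthase is known to follow the clock and feeding. Of 13 clock genes, 10 did not overlap between HME and control (30% of all genes), 8 between model and control (21.1%) and 4 between HME and model (13.9%). Per2, for example, was at 74.9 to 89.0 CPM in the control rats, 12.6 to 17.0 CPM in the model rats and 14.4 to 15.3 CPM in the HME rats. The part of the clock in the values of the glycogen genes was not tested.

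**Figure D4:**
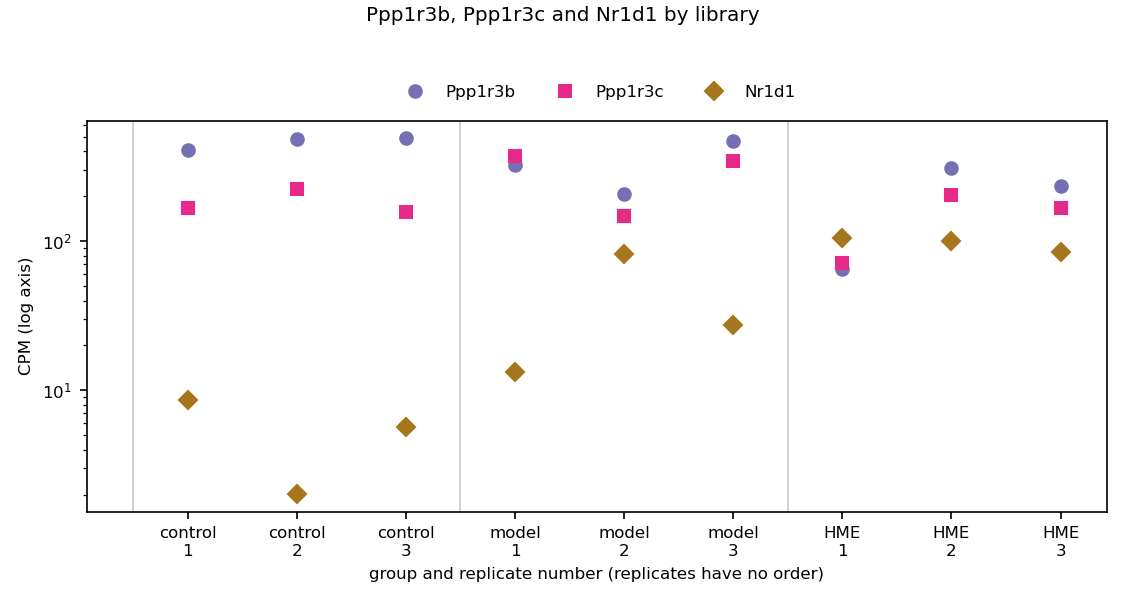
Levels in CPM on a log axis are plotted for Ppp1r3b, Ppp1r3c and Nr1d1 in each of the 9 libraries, and the heights of different genes are not comparable because gene length was not taken into account. Model replicate 2 and HME replicate 1 hold the lowest values of their groups for Ppp1r3b, at 207 and 64.8 CPM, and for Ppp1r3c, at 148 and 70.9 CPM.

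Among 7083 genes screened for likeness in log2 CPM over the 9 libraries, Cops7a had the highest correlation with Ppp1r3b (Pearson r 0.95). The genes most like Gys2 were Pus10 (0.94), Kcnj15 (0.94) and Utp20 (0.94), and those most like Pygl were Inhba (0.94), Adora1 (0.93) and Afg3l2 (0.92). For Ppp1r3c they were Ttc39c (0.94), Acot3 (0.94) and Slc34a2 (0.94). For Ppp1r3g, with its few counts, they were Gadd45a (0.86), Il1r1 (0.85) and Nceh1 (0.83). With 9 libraries and this many genes, high values arise for any gene, and they are given as a description.

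Beyond the members, 44 further genes of glycogen metabolism and its control were listed, and 41 were matched in the table. In model against control 40 of them were tested and 0 called by edgeR, 4 had an unadjusted p under 0.05 (13.2% of all genes), and DESeq2 called 1. The gene past an FDR of 0.05, as 0.601% of all genes were, was Gckr. Gckr was at 144, 165 and 143 CPM in the control rats and at 357, 289 and 381 CPM in the model rats, with the HME rats in between at 235, 266 and 259 CPM. The 3 groups did not overlap. Its log2 fold change was 1.18 in model against control (standard error 0.157, FDR 0.0244 from edgeR), 0.74 in HME against control (standard error 0.116, FDR 0.0079), which was called, and -0.43 in HME against model (FDR 0.515). The call in HME against control was lost with any of the 6 rats left out, with FDR values of 0.0177 to 0.0354. In model against control the FDR of Gckr ran from 0.0182 to 0.1075 with a rat left out. There it was 0.131 with the replicate block.

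In HME against control 39 of the listed genes were tested, 1 was called higher and 0 lower. At an FDR of 0.05 with the same fold threshold 3 passed (6.36% of all genes), among them Gckr and Adra1b, and Gaa and Prkar2a passed the FDR but not the fold threshold. Gaa, the lysosomal glucosidase that digests glycogen, was at 57.6 ± 2.604 CPM in control rats and 77.8 ± 6.48 CPM in HME rats (log2 fold change 0.43, FDR 0.0404 from edgeR). Adra1b, an adrenergic receptor through which catecholamines start glycogen breakdown, fell from 68.4 ± 4.87 to 46.3 ± 1.31 CPM (log2 fold change -0.57, FDR 0.0125 from edgeR). Prkar2a, a regulatory subunit of protein kinase A, was at 35.6 ± 0.291 CPM in control rats and 25.7 ± 2.34 CPM in HME rats (log2 fold change -0.47, FDR 0.0327 from edgeR). With all 9 libraries in one fit the FDR was 0.0747 for Gaa, 0.0203 for Adra1b and 0.538 for Prkar2a. With a rat left out it reached 0.1198 for Gaa, 0.04975 for Adra1b and 0.098 for Prkar2a. DESeq2 gave an FDR of 0.014 for Gaa, 0.000589 for Adra1b and 0.0157 for Prkar2a, and of these called only Adra1b. Adra1b was also called with library size alone or without a filter. The HME and control rats did not overlap in Gaa, Adra1b and Prkar2a, which are among 6 higher and 8 lower genes of the 39 without overlap (30% of all genes). In HME against model 39 were tested, 0 were called by edgeR or DESeq2, and 5 had an unadjusted p under 0.05 (8.02% of all genes). The median log2 fold change of the list was 0.03 in model against control, -0.05 in HME against model and -0.07 in HME against control.

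**Figure D5:**
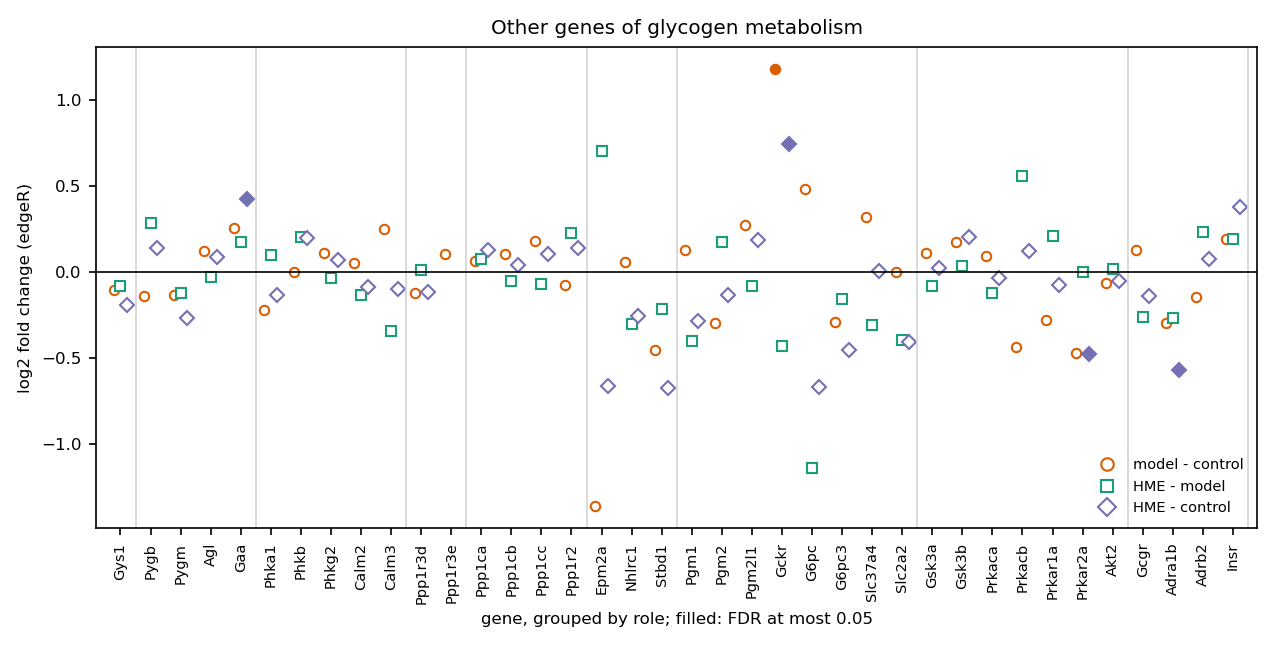
The log2 fold changes of other listed genes are plotted by role for model minus control (circles), HME minus model (squares) and HME minus control (diamonds), with filled symbols at an FDR of at most 0.05. Most values lie close to 0, and Gckr is filled in both comparisons with the control group, at 1.18 and 0.74.

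Markers of other cell types were summed beside these results. The 4 matched endothelial markers ran from 123 to 208 CPM in control rats, 80.6 to 240 CPM in model rats and 127 to 178 CPM in HME rats, and the 7 markers of Kupffer cells and leukocytes from 172 to 427, 121 to 279 and 185 to 255 CPM. For 5 stellate cell markers the ranges were 66.3 to 76.2, 57.9 to 81.9 and 63.2 to 70.3 CPM. The 4 bile duct markers summed to 14.9 to 21.6, 13.5 to 27.8 and 18.9 to 21.6 CPM, and 3 matched red blood cell markers of 4 to 195 to 710.0, 192 to 345 and 202 to 330.3 CPM. Of 4 adipose markers 2 were matched, and their sum of 52.8 to 67.9, 65.1 to 82.9 and 50.9 to 67.2 CPM was nearly all Cidec, with Adipoq at 0 or 1 count a library. The sums of 3 proliferation markers were 2.38 to 5.50, 4.73 to 10.97 and 0.65 to 3.59 CPM. The last sum did not overlap between the model and HME groups, as was so for 13.9% of all genes. It rested on few counts, 2 to 6 for each marker in HME replicate 1. Of 4 pancreatic markers 2 were matched, Cpa1 with 1 count in a control library and 0 in the other 8, and Cela1 at 13.0 to 16.3 CPM in control rats, 18.5 to 28.1 CPM in model rats and 16.1 to 26.6 CPM in HME rats. Control and model rats did not overlap in Cela1 (21.1% of all genes). No matched marker was at 0 in all libraries, and 0 of 4 skeletal muscle markers were matched. The part of other cell types in the values of the glycogen genes was not tested.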

How the data were processed

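Liver RNA was sequenced in 9 libraries, each taken here as 1 rat. The labels do not state separate animals, and if some libraries shared one, p-values would measure only technical spread. According to the study's methods and the submitters' processing notes, the authors aligned the reads with HISAT2 to Rnor_6.0, assigned them to exons by unstranded HTSeq 0.6.1 counting, and deposited whole-number counts per gene without normalization. Reads can therefore be counted for a gene on the opposite strand, and reads that fit overlapping genes equally are left out. A second deposited table, of assembled transcripts in an unstated unit, was not used. Gene symbols came from the count table. No rat genome was given, so no positions, lengths or sequences are printed.

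Each comparison was fitted on its 6 libraries with edgeR 4.0.16 (R 4.3.3), using filterByExpr, TMM factors, robust glmQLFit and two-sided glmQLFTest with Benjamini-Hochberg adjustment. The study used DEGseq and DESeq, and DESeq2 1.42.0 was an alternative here. Standard errors are the fold change over the root of the F statistic. Ratios of counts were compared with exact permutation tests. The tests were tried on simulated counts. Counting intervals cover counting error only.

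The members, lists and naming rule were chosen with earlier results of these data known. All members were named, listed pathway genes at an FDR of at most 0.05, and the 3 genes most like each of 5 members. Nr1d1 and Per2 were picked from the clock list after their values were seen. Some genes that the rule names are not reported here, though counts over the lists include them. Of the pathway list, Ppp1r3a, Ppp1r3f and Ppp1r1a were not matched. Alternatives were other scalings and filters, DESeq2, a block on replicate number, a joint fit of all libraries, other thresholds and each rat left out.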

Additional observations from a re-analysis of the deposited data

How the results depend on the processing

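For the glycogen members, library size alone, which put the median log2 fold change of all genes at -0.145 in model against control and at -0.144 in HME against control (-0.001 and -0.008 with TMM), turned Gbe1 to -0.15 and Ugp2 to -0.0083 on the log2 scale in model against control. With the replicate number as a block, Gbe1 there was -0.0055. With 1 rat left out, the log2 fold changes crossed 0 for Gbe1 in model against control (-0.13 to 0.067), for Ugp2 (-0.030 to 0.31) and Gyg1 (-0.087 to 0.13) in HME against model, and for Ppp1r3c in HME against control (-0.62 to 0.013). Without both model replicate 2 and HME replicate 1, a choice made after seeing the data, Ugp2 in HME against model was -0.10 and 0 members were called. Members called in HME against control numbered 1, but 2 with DESeq2 or an FDR of 0.05, 0 with all 9 libraries in one fit, 0 with the replicate block and 0 to 1 with a rat left out. In HME against model DESeq2 called 1 member.

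Pathway genes called in model against control numbered 0, but 1 without a filter, with DESeq2, with all 9 libraries in one fit and at an FDR of 0.05. In HME against control they numbered 1, but 2 with library size alone or no filter, 3 with DESeq2 or an FDR of 0.05, 0 with all 9 libraries or the replicate block, and 0 to 1 with a rat left out. With a rat left out, the difference in the log2 ratio of Ppp1r3b to Ppp1r3c turned in HME against model (-0.15 to 0.29), and kept its direction in the comparisons with control (-1.21 to -0.87 for model, -1.17 to -0.80 for HME). The ratio of Gys2 to Pygl kept its direction at -0.49 to -0.48 in model against control, 0.07 to 0.26 in HME against model and -0.41 to -0.22 in HME against control. Deviations from the group means were not positively correlated between rats of the same number (correlations -0.232 to -0.0206). With 3 rats a group, this cannot show whether rats of the same number shared anything beyond it. Over all genes, DESeq2 called 256, 147 and 769 genes in model against control, HME against model and HME against control, where edgeR called 10, 17 and 187. With library size alone the higher and lower calls in HME against control were 57 and 181, in place of 83 and 104.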
